A study of Homo sapiens with 2 samples.

Results

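The chromosome 19 ZNF genes are the genes with a symbol of the form ZNF and a number that lie on human chromosome 19. Of the 12353 Ensembl gene identifiers in the deposited table, 222 carried such a symbol and lay on that chromosome, 221 of them protein-coding and 1 (ZNF788P) a transcribed pseudogene. Another 217 ZNF genes with a value lay on other chromosomes and served as the background, beside 700 other protein-coding genes of chromosome 19. The rule used symbols and chromosomes alone and no measured value.

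The study measured nascent RNA in BJ cells, an established line of human skin fibroblasts, with GRO-seq, or global run-on sequencing. In this assay engaged RNA polymerases extend their transcripts in isolated nuclei with a brominated nucleotide, and the tagged RNA is captured and sequenced. The cells were untreated and grew in medium with 10% serum, and the run-on lasted 5 min at 30 °C. The 2 libraries, called a and b after their columns, form 1 group of replicates. Values are FPKM, a fragment density per kilobase of gene relative to library size, made by the authors. Levels of different genes are thus compared per length, but the sources used here do not state which gene length was used. Where nothing else is said, a value is the mean ± SD over the 2 libraries (n = 2).

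With 1 group and 2 libraries no p-value was computed, since an exact sign-flip test over 2 libraries cannot go below 0.5. Depth is unknown, because the table gives neither counts nor read totals. All 13 fibroblast marker genes had a value, with a median FPKM of 48.7. The lowest of them, DCN (7.34 ± 0.495), lay below the median of all genes in both libraries. Of the markers of other cells, 1 of 5 keratinocyte, 3 of 5 melanocyte, 0 of 5 endothelial and 0 of 5 leukocyte genes had a value. The melanocyte genes were PMEL (22.4 ± 2.23), MITF (9.905 ± 1.44) and MLANA (4.53 ± 0.750), whose part in the values below was not tested. In such bulk samples fewer transcribing cells and less RNA per cell cannot be told apart.

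ZNF genes encode proteins with arrays of C2H2 zinc fingers, each finger a short fold around a zinc ion that reads a few bases of DNA. On chromosome 19 most of them stand in tandem clusters that grew by gene duplication, and most encode a KRAB domain in front of the fingers. The KRAB domain binds TRIM28 (also called KAP1), a scaffold that brings the histone methyltransferase SETDB1 and heterochromatin proteins to the bound DNA. Many of these proteins bind and silence transposable elements.

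The reference sequence around the start of these genes is shown first, because it returns in the results below. The promoter here is the 300 bases from 250 before the annotated start to 50 after it, taken from RefSeq on GRCh38.p14 at the most upstream listed start, and 198 of the 222 genes had one. Capitals mark CCGGAAG or its reverse complement CTTCCGG, a form of the site bound by ETS-family transcription factors. This exact string is called the ETS core below, and other forms of the site were not searched. A position is counted from the start base as 0. The whole promoter shown is that of ZNF580, which had the highest mean over the libraries, although ZNF497 was higher in library a. The ZNF580 promoter lies at chr19:55640752-55641051 on the plus strand, holds 35 CpG dinucleotides and is 70.7% G or C.
ZNF580 promoter: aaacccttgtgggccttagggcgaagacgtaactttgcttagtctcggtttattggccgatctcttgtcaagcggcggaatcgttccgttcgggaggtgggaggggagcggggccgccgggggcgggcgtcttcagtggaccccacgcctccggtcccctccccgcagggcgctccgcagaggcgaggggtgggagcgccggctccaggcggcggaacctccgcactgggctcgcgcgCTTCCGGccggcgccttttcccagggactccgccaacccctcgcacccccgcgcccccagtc

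Windows of 60 bases around the first match are shown for the other 3 of the 4 highest and for the 4 lowest genes by level that hold the motif, since the match sat near the start at both ends of the range. The matches began 25 bases before the start in ZNF814 (chr19:57889029-57889088, minus strand), 56 before it in ZNF557 (chr19:7069621-7069680, plus strand) and 18 before it in ZNF776 (chr19:57746771-57746830, plus strand). They began 23 bases before the start in both ZNF737 (chr19:20565771-20565830, minus strand) and ZNF681 (chr19:23758881-23758940, minus strand), 6 bases after it in ZNF816 (chr19:52962842-52962901, minus strand) and 18 before it in ZNF257 (chr19:22052440-22052499, plus strand).
ZNF814: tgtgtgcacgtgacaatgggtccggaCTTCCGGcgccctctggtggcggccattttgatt
ZNF557: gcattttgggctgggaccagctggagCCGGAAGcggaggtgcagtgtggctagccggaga
ZNF776: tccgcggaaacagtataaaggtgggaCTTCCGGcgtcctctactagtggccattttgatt
ZNF737: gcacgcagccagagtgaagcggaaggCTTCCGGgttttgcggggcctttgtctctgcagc
ZNF681: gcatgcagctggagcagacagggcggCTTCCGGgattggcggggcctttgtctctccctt
ZNF816: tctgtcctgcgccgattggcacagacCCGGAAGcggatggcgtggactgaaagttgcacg
ZNF257: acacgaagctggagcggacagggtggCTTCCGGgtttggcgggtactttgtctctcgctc

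The first question was how much of the family was transcribed. RefSeq lists 250 protein-coding ZNF symbols on chromosome 19, and 221 of them (88.4%) had a value. The share was 79.8% for the 267 ZNF genes elsewhere, 58.3% for the 1201 other protein-coding genes of chromosome 19 and 59.8% for all 20056 protein-coding genes. Of the 54 ZNF symbols of chromosome 19 that are not protein-coding, 1 had a value. The table as a whole holds mainly protein-coding genes, with values for 12000 RefSeq protein-coding symbols among its 12353 identifiers. The lowest values of the whole table were 0.29 and 0.27 in libraries a and b, so a gene without a value is described only as having none.

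Of the 29 protein-coding symbols without a value, 8 lay among the 37 genes from ZNF101 to ZNF254. They were ZNF208, ZNF492, ZNF676, ZNF723, ZNF728, ZNF729, ZNF98 and ZNF99, named after their values were looked up. ZNF541, a gene of the testis, and ZNF536, a gene of the nervous system, had no value either, and neither did ZNF114. Some of the 29 symbols stand for joined transcripts, such as ZNF559-ZNF177 and ZNF816-ZNF321P.

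The second question was at what level the family was transcribed. The median FPKM of the 222 genes was 9.165 and 9.275 in libraries a and b, against 11.76 and 11.70 for all genes. Below the median of all genes in both libraries stood 143 of the 222 (64.4%), a share that was 47.6% over all 12353 genes, and above it in both stood 67 (30.2%, against 47.6% over all genes). The median log2(FPKM + 0.1), averaged over the libraries, differed from that of all genes by -0.32 (-0.36 and -0.33 in libraries a and b), a 1.25-fold lower level. The first value is a median of averages and can fall outside the values of the libraries. This and the next comparisons of levels cover only genes with a value. Those were 88.4% of the family's protein-coding genes and 79.8% of the ZNF genes elsewhere. The shares were 58.3% for other chromosome 19 genes and 59.8% for all protein-coding genes. Genes without a value were not counted as low, so a lower level is meant among genes with a value.

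Against other genes of the same chromosome the distance was larger. The median differed by -0.49 log2 units from that of the 700 other protein-coding genes (-0.51 and -0.46 in libraries a and b), or 1.40-fold lower. Those genes had a median FPKM of 13.13 and 12.775 in libraries a and b, and 41.1% of them lay below and 51.6% above the median of all genes in both libraries.

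Against ZNF genes elsewhere the medians were close. Those 217 genes had a median FPKM of 9.59 and 9.64 in libraries a and b, and the chromosome 19 genes differed from them by -0.03 log2 units (-0.06 in each library), 1.02-fold. Its sign turned, to 0.0072, without the 40 chromosome 19 genes that overlap another protein-coding gene in RefSeq. Overlapping genes were left out on chromosome 19 only, not among the ZNF genes elsewhere. Below the median of all genes in both libraries stood 56.2% of the ZNF genes elsewhere, and above it 37.3%. On the 4 chromosomes with the most of these genes their medians were 15.3 over the 29 on chromosome 16, 8.70 over the 24 on chromosome 7, 14.7 over the 18 on chromosome 1 and 5.48 over the 15 on chromosome 10.

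**Figure D1:**
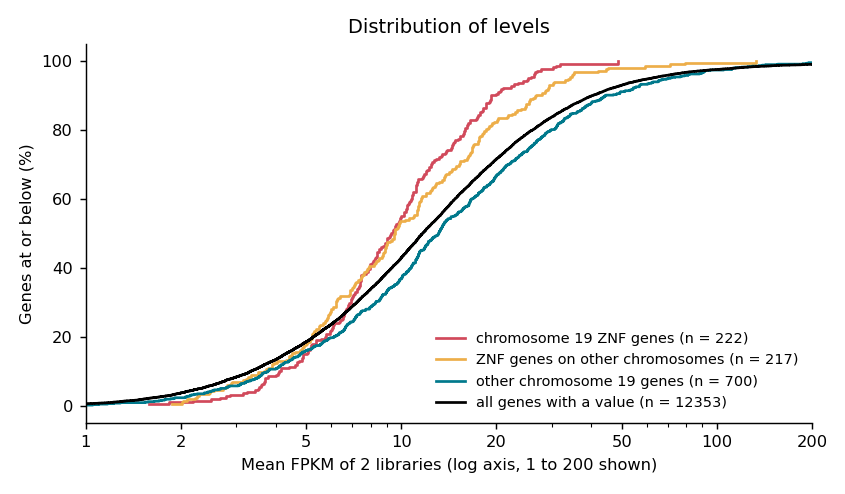
Cumulative share of genes (%) against mean FPKM of the 2 libraries on a log axis, for the 222 chromosome 19 ZNF genes, the 217 ZNF genes elsewhere, the 700 other chromosome 19 genes and all 12353 genes. The curve of the chromosome 19 ZNF genes is the steepest and ends at 48.75.

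The chromosome 19 ZNF genes kept to a narrower range than the other sets. The SD of log2(FPKM + 0.1) across genes was 0.87 in both libraries, against 1.11 in both for ZNF genes elsewhere, 1.39 and 1.41 in libraries a and b for other chromosome 19 genes and 1.46 and 1.48 for all genes. From the lowest 5% to the highest 5% of genes the FPKM rose from 3.56 to 25.2, a ratio of 7.08, where the ratio was 12.2 for ZNF genes elsewhere and 26.5 for all genes. None of the 222 reached a mean FPKM of 50, a level that 860 genes (6.96%) of the table reached, and 4 of the 217 elsewhere did. At 20 or more stood 21 genes (9.46%, against 28.5% of all genes), and under 5 stood 33 (14.9%, against 18.5%). Their part of all FPKM added up was 0.620% and 0.610%, which is not a share of reads.

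ZNF580 and ZNF497 headed the list with near-equal means. ZNF580 (ENSG00000213015) stood at 46.3 and 51.2 in libraries a and b, and ZNF497 at 50.2 and 47.2. Their order was reversed between the libraries, so they cannot be ranked. Each was 4.17 or 4.16 times the median gene. ZNF580 overlaps a protein-coding gene in RefSeq and ZNF497 does not, so the value of ZNF580 may include or lack shared reads.

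The next 10 genes followed at 25.2 to 31.8. ZNF561 stood at 33.0 and 30.6 in libraries a and b, and ZNF146, which encodes a protein made almost wholly of zinc fingers, at 33.3 and 28.5. ZNF428 was at 26.7 and 33.85, so the order of these 3 also depended on the library. ZNF570 (27.8 ± 0.247), ZNF581 (26.9 ± 2.04), ZNF552 (26.5 ± 0.771), ZNF814 (26.4 ± 0.615), ZNF784 (26.3 ± 0.905), ZNF575 (25.8 ± 0.573) and ZNF557 (25.2 ± 2.03) followed in steps of at most 1 FPKM unit. Of these 10 genes, ZNF146, ZNF428, ZNF570 and ZNF581 overlap a protein-coding gene in RefSeq, and the others do not. The values of the overlapping genes may include or lack shared reads.

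The 8 lowest genes lay between 1.59 and 3.155. ZNF285 was at 1.48 and 1.70 in libraries a and b, and ZNF257 at 2.21 and 1.47, so either could be the lowest. The pseudogene ZNF788P stood at 2.03 and 2.34. ZNF816 (2.505 ± 0.191), ZNF90 (2.67 ± 0.361), ZNF626 (2.79 ± 0.332), ZNF554 (2.88 ± 0.219) and ZNF154 (3.155 ± 0.205), whose promoter is often methylated in tumours, came next.

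**Figure D2:**
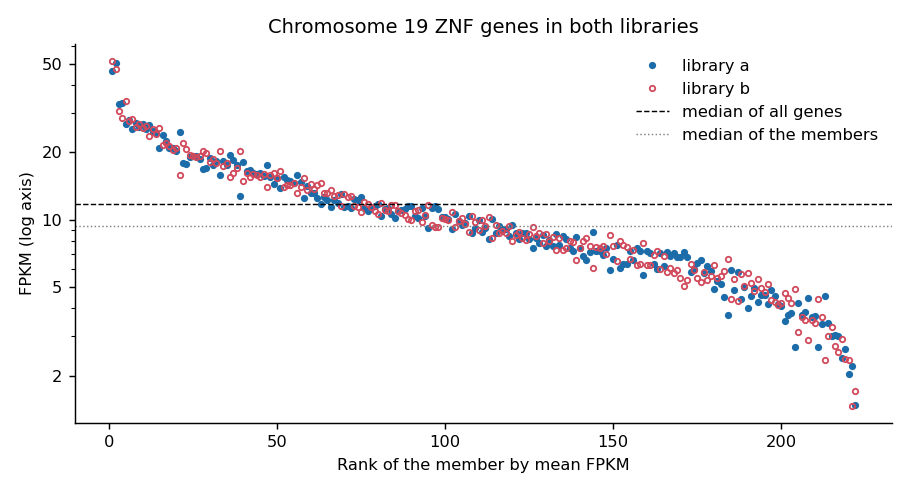
FPKM (log axis) of the 222 chromosome 19 ZNF genes in library a (filled) and library b (open) against their rank by mean FPKM, with the median of all genes (dashed) and of the 222 (dotted). Both libraries fall along 1 curve, and most genes lie under the dashed line.

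Both libraries gave nearly the same values for the family. Across the 222 genes Spearman's rho between libraries was 0.968 and Pearson's r on the log2 scale 0.963, as descriptions across genes that share their libraries. The median gene differed 1.10-fold between libraries, as did the median of all genes, and 110 genes were higher in library b and 112 in library a. Relative to all genes the median log2 difference, b over a, was 0.014.

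More than 1.5-fold apart on the scale of FPKM + 0.1 were 7 of the 222 genes (3.15%), a share that was 2.17% over all genes and 3.69% over ZNF genes elsewhere. ZNF737 was at 4.53 and 2.36 in libraries a and b, ZNF787 at 4.47 and 2.90, and ZNF461 at 24.6 and 15.8. ZNF551 was at 2.70 and 4.88, ZNF610 at 3.73 and 6.66, ZNF491 at 2.70 and 4.41, and ZNF69 at 12.8 and 20.4. Of these 7, 4 were higher in library b (1.8%, against 0.89% of all genes and 1.84% of ZNF genes elsewhere) and 3 in library a (1.35%, against 1.28% of all genes, 1.84% of ZNF genes elsewhere and 1.86% of other chromosome 19 genes). The mean level was under 6 in 5 of the 7.

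Among genes whose proteins are known to silence transposable elements, ZNF91, a repressor of SVA elements, stood at 14.53 and 14.52 in libraries a and b. ZNF93, a repressor of LINE-1 elements, was at 11.5 and 10.0. Both lay near or above the median gene (1.24 and 0.922 times its level), and ZNF91 was the higher in each library. ZNF587 and ZNF417, paralogues that bind endogenous retroviruses, were at 16.5 ± 2.20 and 7.98 ± 0.919, and ZNF808, which binds MER11 elements and is needed for pancreas development, at 16.0 ± 0.0919. Since ZNF587 and ZNF417 are close copies and the sources used here do not say how reads that fit both were handled, their values are uncertain.

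ZNF274, which binds the end exons of ZNF genes themselves and brings SETDB1 there, stood at 8.52 and 7.83 in libraries a and b. That is 0.699 times the median gene and close to the median of the family it binds. ZNF473, a component of the machinery that processes histone mRNA ends, was at 15.1 and 14.3. ZNF331, an imprinted gene, was at 5.83 and 4.34.

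Genes known as regulators of single targets or partners spread over the range. ZNF175, described as a repressor of HIV transcription, was at 18.2 ± 0.785, ZNF675, an inhibitor of TRAF6 signalling, at 11.7 ± 1.22, ZNF224, a repressor of the aldolase A gene, at 11.2 ± 0.346, and ZNF350, a partner of BRCA1, at 7.39 ± 0.212. ZNF382 was at 7.44 ± 1.16, ZNF444, a SCAN-domain protein gene, at 7.405 ± 1.92, and ZNF558, a repressor of the mitophagy gene SPATA18, at 4.595 ± 0.318. The same list of genes with known roles held ZNF43 (18.5 ± 0.587), ZNF45 (18.0 ± 3.16), ZNF507 (9.87 ± 0.0141), ZNF296 (8.885 ± 0.615), ZNF653 (8.405 ± 0.403), ZNF649 (7.25 ± 0.339) and ZNF85 (6.65 ± 0.438). In all 25 of the 28 listed genes had a value, with a median of 9.87, and 9 lay above and 15 below the median of all genes in both libraries, where the shares were 30.2% and 64.4% over the 222 genes and 47.6% each over all genes.

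Genes listed for corepressors, a list that also takes in heterochromatin genes more widely, had a higher median FPKM than the family. Of a list of 27 corepressor genes 26 had a value, with a median FPKM of 19.01 and 17.7 in libraries a and b, 1.95 times the median of the ZNF genes. Above the median of all genes in both libraries lay 17 of the 26, against 47.6% of all genes, and below it in both lay 7. UHRF1 had no value.

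TRIM28, the scaffold itself, was the highest of the list at 54.6 and 53.9 in libraries a and b, above each of the 222 ZNF genes. The heterochromatin protein genes stood lower, with CBX3 at 52.1 ± 0.276, CBX1 at 44.3 ± 2.37 and CBX5 at 21.0 ± 0.757. The methyltransferase SETDB1 stood at 31.1 and 28.7, whereas its partner ATF7IP was at 9.23 and 7.67. Genes of the deacetylase and remodelling complex were at 38.5 ± 3.68 (HDAC1), 30.4 ± 3.73 (CHD4), 29.7 ± 2.04 (CHD3) and 15.2 ± 2.60 (HDAC2).

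Of the HUSH complex, which spreads repressive marks over retroelements, MPHOSPH8 was at 24.0 ± 1.06, TASOR at 13.6 ± 0.0495 and PPHLN1 at 8.785 ± 0.559, and its partner MORC2 was at 10.5 ± 0.148. The histone chaperone DAXX (35.6 ± 0.0636) stood far above its partner ATRX (4.63 ± 0.170). DNMT1, the maintenance DNA methyltransferase, was at 20.6 ± 2.14 and the other H3K9 methyltransferases at 13.8 ± 2.43 (SUV39H1), 11.9 ± 0.827 (SUV39H2), 7.23 ± 0.170 (EHMT2) and 6.275 ± 1.63 (EHMT1). SENP7, a SUMO protease, was the lowest at 2.235 ± 0.0212.

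**Figure D3:**
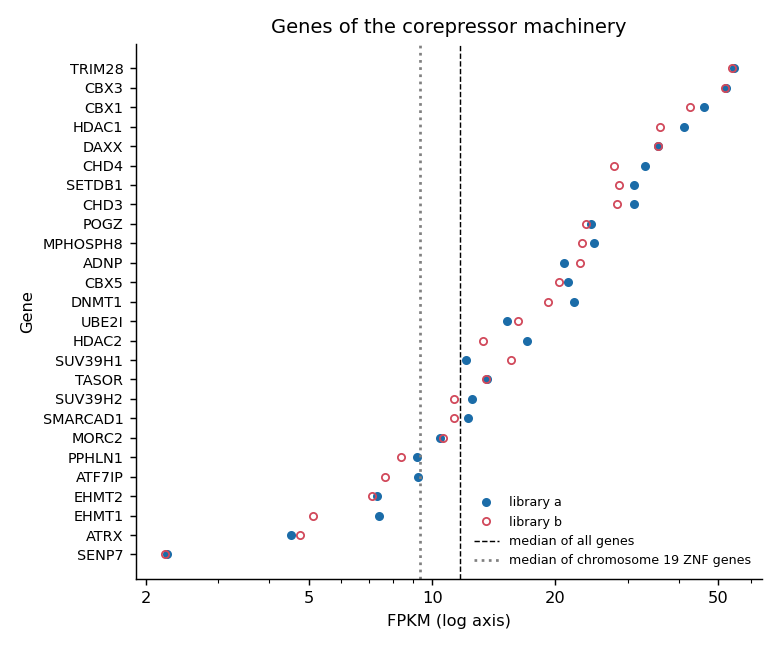
FPKM (log axis) of the 26 corepressor genes with a value in library a (filled) and library b (open), with the medians of all genes (dashed) and of the chromosome 19 ZNF genes (dotted). TRIM28 is at the top at 54.25 and SENP7 at the bottom at 2.235.

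The genes were then placed in their order along the chromosome. Genes of RefSeq's protein-coding list with at most 5 coding genes of other families between them were joined into runs, each named by its first and last gene. Of the runs, 10 had at least 5 genes and together held 204 of the genes with a value, while 17 genes lay outside such runs. ZNF788P, a pseudogene, was not placed.

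Genes outside runs had higher levels. Their median FPKM was 11.93 and 12.85 in libraries a and b, against 8.955 and 8.945 within runs, so that genes in runs differed from those outside by -0.45 log2 units (-0.41 and -0.52 in libraries a and b). The value was -0.34 when at most 2 other genes were allowed, which put 22 genes outside. The 17 genes ranged from 4.165 to 30.3, so they overlapped widely with the others, and 9 of the 17 lay above the median of all genes in both libraries, against 58 of the 204 in runs and 47.6% of all genes. ZNF428, ZNF575 and ZNF557 of the highest genes were among them.

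The medians of the 10 runs lay between 3.70 and 14.6. Of the longer runs, those from ZNF101 to ZNF254 (7.375 over 29 genes), from ZNF577 to ZNF331 (7.32 over 34), from ZNF565 to ZNF573 (8.64 over 26) and from ZNF283 to ZNF180 (8.91 over 19) had medians below 9. The run from ZNF653 to ZNF791 stood at 9.225 over 24 genes and the longest, from ZNF787 to ZNF446, at 10.9 over 47. From ZNF101 to ZNF254, 24 of 29 genes lay below the median of all genes in both libraries, and from ZNF577 to ZNF331 28 of 34 did, whereas in the longest run 25 of 47 did (47.6% over all genes).

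Smaller runs lay at both ends. The 5 genes from ZNF302 to ZNF792 had a median of 14.6, with ZNF302 at 21.1 ± 0.311 and ZNF792 at 6.935 ± 0.502, and the 10 measured genes from ZNF317 to ZNF846 had one of 12.9, with ZNF561 highest and ZNF177 lowest at 5.77 ± 0.594. The 3 measured genes of the run from ZNF554 to ZNF77 were all low, between 2.88 and 4.02.

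The run from ZNF628 to ZNF580 had a median of 7.455, and one of 16.9 over the 6 genes from ZNF579 on, which form the run when at most 2 other genes are allowed. Of its 7 genes 3 stood above the median of all genes in both libraries, ZNF580, ZNF581 and ZNF784, and 4 below it, down to ZNF524 at 5.585 ± 0.969. Other extremes within runs were ZNF627 (22.8 ± 1.52) against ZNF491 (3.555 ± 1.21), ZNF226 (20.6 ± 0.417) against ZNF285, ZNF146 against ZNF573 (3.53 ± 0.170), ZNF528 (17.8 ± 0.205) against ZNF816, ZNF43 against ZNF257 and ZNF497 against ZNF154.

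**Figure D4:**
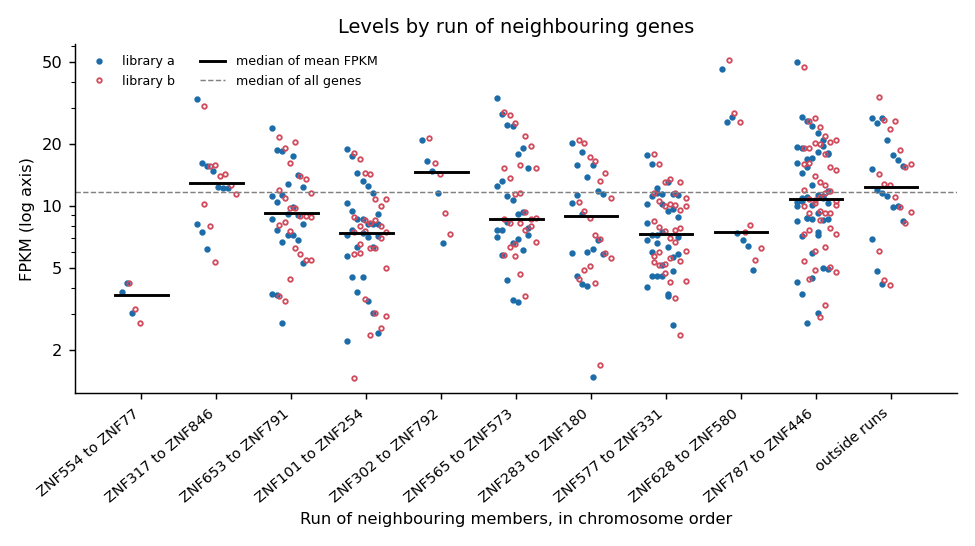
FPKM (log axis) of the chromosome 19 ZNF genes by run, in chromosome order, with library a filled, library b open, the median of each run as a bar and the median of all genes dashed. Each of the longer runs spans a wide range, from 3.155 to 48.695 in the run from ZNF787 to ZNF446.

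Neighbours were only slightly more alike than any 2 members. The 194 pairs of consecutive genes within runs differed by a median of 0.69 log2 units (0.72 and 0.67 in libraries a and b), and all 24531 pairs of the 222 genes by 0.82 (0.83 in both libraries). These are 1.62-fold and 1.77-fold differences. The pairs share genes and libraries, so the values are given as descriptions.

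Of the 198 genes with a promoter, 40 (20.2%) had an annotated start of another gene within 1000 bases, pointing away from theirs. The share was 33.5% for ZNF genes elsewhere, 22.4% for other chromosome 19 genes and 28.9% for all 9936 genes with a value and a promoter. The median FPKM of the 40 was 9.255 and 9.27 in libraries a and b, and that of the other 158 was 9.975 and 9.825. The partner was a long noncoding RNA gene for 23 genes and another measured gene of the family for 14, which form 7 head-to-head pairs.

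In those pairs the members often differed. ZNF146 stood at 33.3 and 28.5 in libraries a and b, whereas ZNF565, whose start lies 22 bases away, was at 8.37 and 6.57, a 4.11-fold difference. ZNF570 was at 28.0 and 27.6 and its partner ZNF569 at 6.94 and 7.65, 3.78-fold lower. ZNF461 and ZNF567 differed 2.37-fold (20.2 ± 6.22 and 8.27 ± 0.622). In these pairs, as in the next 3, the values of the libraries did not overlap between the genes.

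ZNF791 (17.4 ± 1.61) stood 2.03-fold above ZNF490 (8.49 ± 0.481), ZNF829 (9.265 ± 0.148) 1.83-fold above ZNF568 (5.05 ± 0.933), and ZNF790 (19.3 ± 0.368) 1.70-fold above ZNF345 (11.3 ± 0.134). ZNF382 and ZNF529 (6.945 ± 0.375) differed 1.06-fold, with the sign turning between the libraries. The median difference of the 7 pairs was 1.02 log2 units, against 0.82 over all 24531 pairs of the 222 genes. The sources used here do not say whether strand was used, so reads of overlapping or antisense transcripts may be shared. In RefSeq 40 of the 222 genes overlap a protein-coding gene (median 7.66, against 9.59 for the other 182). Their lower median does not hold for each gene, since ZNF580, ZNF146, ZNF428, ZNF570 and ZNF581 are among the 40. How shared reads, counted or left out, change the levels of these genes was not tested.

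The ETS core was frequent in the promoters of the family. CCGGAAG, on either strand, lay in 90 of the 198 promoters (45.5%). It lay in 37.4% of the 179 promoters of ZNF genes elsewhere, in 17.2% of the 594 of other chromosome 19 genes, in 19.4% of the 9936 promoters of all genes with a value and in 10.6% of all 27305 genes of the promoter table. With any listed start in place of the most upstream one the count was 96 (48.5%).

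The matches lay close to the start. Positions were not computed for the other sets, so this is not shown to be particular to the family. Of 101 matches in the 90 promoters, 91 (90.1%) began within the stretch from 100 bases before the start onward, which holds 48.98% of the possible positions, and the median position was 18 bases before the start. Of the matches 42 read CCGGAAG and 59 CTTCCGG along the gene's strand.

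Its share differed widely between runs. It was 69.2% (18 of 26 promoters) from ZNF101 to ZNF254, 65.1% (28 of 43) from ZNF787 to ZNF446 and 60.7% (17 of 28) from ZNF577 to ZNF331. It was 24.0% (6 of 25) from ZNF565 to ZNF573 and 8.70% (2 of 23) from ZNF653 to ZNF791. Promoters within a run can share descent and were not taken as independent.

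**Figure D5:**
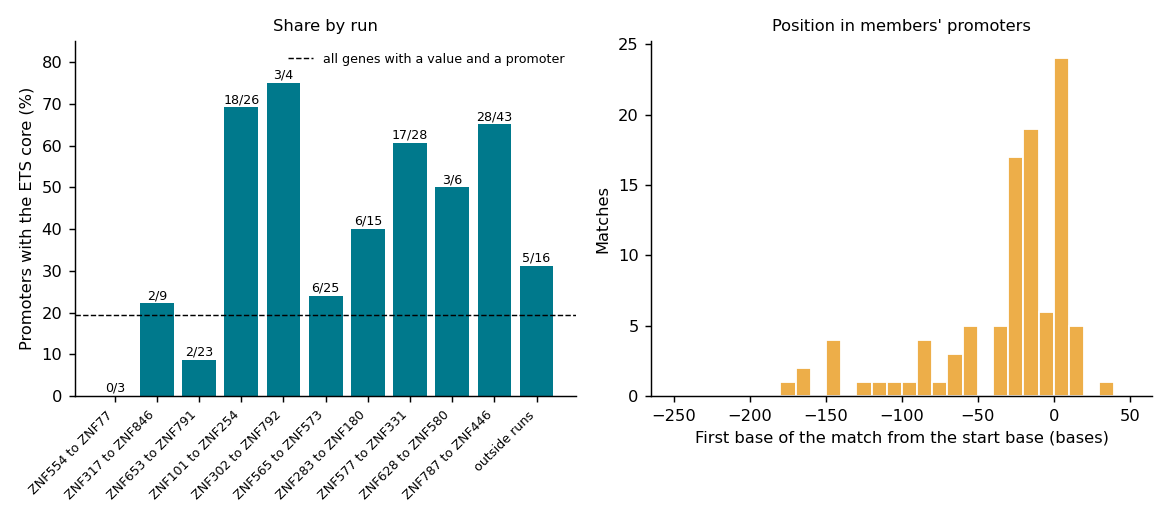
Left, percent of promoters with the ETS core in each run, with counts above the bars and the share over all genes with a value dashed; right, number of matches by distance in bases of the match from the start base. The shares run from 0 of 3 to 3 of 4, and most matches lie from 100 bases before the start onward.

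The order of levels with and without the motif was not the same in both libraries. The median FPKM was 10.26 with it and 9.59 without it in library a, and 9.395 and 9.76 in library b. Over all genes with a value the medians were 14.7 with and 11.3 without the motif in library a and 14.65 and 11.2 in library b. For ZNF genes elsewhere they were 12.11 and 9.15 in library a and 11.90 and 8.99 in library b. The order also differed between runs. Within the run from ZNF101 to ZNF254 the medians of the mean were 7.47 over 18 genes with it and 7.52 over 8 without. Genes with it were higher in each library from ZNF577 to ZNF331 (9.395 over 17 against 7.39 over 11). The same held from ZNF787 to ZNF446 (11.25 over 28 against 10.415 over 15). They were lower in each library, for example, from ZNF628 to ZNF580 (7.45 over 3 against 26.3 over 3) and outside runs (6.48 over 5 against 12.39 over 11).

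Of the 9 motifs searched on both strands, CCAAT lay in 54.5% of the family's promoters (37.0% over all genes with a value), the GC box GGGCGG in 65.2% (69.5%), the NRF1 motif in 12.6% (11.8%) and the TATA box TATAAA in 2.02% (5.72%). ACTACAA lay in 4.55% (3.86%), the E-box CACGTG in 4.04% (9.99%), TGACGTCA in 3.54% (3.28%) and the YY1 motif in 2.02% (2.78%). A GC box can overlap other matches. The family's promoters held a median of 20 CpG dinucleotides and 60% G or C, against 26 and 65% over all genes with a value. Across the 198 genes Spearman's rho with the level was 0.078 for CpG and 0.025 for G and C content.

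Some promoters of the family resembled one another, most of them in 1 run. At least 80% identity over 150 or more aligned bases was found for 257 pairs of measured genes, made up of 57 genes, and in each of the 257 both genes lay in the same run or, for 1 pair, both outside runs. The run from ZNF101 to ZNF254 held 212 of these pairs, among 23 genes. The longest run, from ZNF787 to ZNF446, held 2 pairs among 4 genes. Levels in these pairs differed by a median of 1.85-fold and by more than 2-fold in 45.5% of them, against 1.78-fold and 41.9% over all pairs of the 222 genes (on FPKM itself, with no pseudocount).

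At 90% identity or more there were 4 such pairs. Bases from 60 before the start to 9 after it are shown for 5 genes of 3 pairs in the run from ZNF101 to ZNF254. All lie on chromosome 19 of GRCh38.p14, and in each pair a single base decides whether the exact string CTTCCGG is present. ZNF486 (chr19:20167154-20167223, plus strand) is shown beside ZNF626 (chr19:20661562-20661631, minus strand), ZNF90 (chr19:20077940-20078009, plus strand), ZNF431 (chr19:21141980-21142049, plus strand) and ZNF714 (chr19:21082143-21082212, plus strand).
ZNF486: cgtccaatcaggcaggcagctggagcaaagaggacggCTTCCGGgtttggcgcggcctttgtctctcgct
ZNF626: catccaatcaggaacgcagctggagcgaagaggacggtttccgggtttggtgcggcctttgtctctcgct
ZNF90: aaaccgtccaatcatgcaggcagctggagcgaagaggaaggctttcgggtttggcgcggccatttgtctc
ZNF431: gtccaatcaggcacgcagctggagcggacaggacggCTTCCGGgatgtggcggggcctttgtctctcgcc
ZNF714: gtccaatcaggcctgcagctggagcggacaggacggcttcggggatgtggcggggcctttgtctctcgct

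Positions in the motif are counted from 1 at the first base of CTTCCGG. ZNF626 differed from ZNF486 there by C1T and ZNF90 by C4T. The stretch in ZNF626, TTTCCGG, still holds the TTCC of CTTCCGG, so the lack of the exact string need not mean the lack of an ETS site. ZNF486 stood at 13.2 and 14.4 in libraries a and b, ZNF626 at 3.02 and 2.55 and ZNF90 at 2.41 and 2.92, so the gene that holds the motif was 4.96-fold and 5.18-fold higher, and the libraries did not overlap. ZNF714 differed from ZNF431 by C5G, and the order of these 2 genes turned between libraries, with ZNF431 at 8.67 and 8.30 and ZNF714 at 8.19 and 8.58. The fourth pair, ZNF443 (9.01 ± 0.0990) and ZNF799 (7.14 ± 0.636), held the motif in neither promoter and differed 1.26-fold. These genes were named after their values were seen. They are close copies, and the sources used here do not say how reads that fit several copies were counted.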

How the data were processed

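Nascent RNA of untreated BJ cells was measured by GRO-seq in 2 libraries of 1 group. The authors deposited FPKM values in 1 table with 2 columns; Bowtie2, HTSeq and the build hg19 are named, without versions, per the submitters' processing notes. The sources used here do not state gene length, read total, multi-mapping reads or strand. The columns end in letters and the labels in numbers, so columns were tied to the group, not to a replicate number, and p-values were not computed.

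Identifiers were matched to current symbols (12196 of 12353) and symbols to RefSeq on GRCh38.p14, used for class, order, overlap and promoters. No length or position was taken from it for the FPKM. Levels were compared as log2(FPKM + 0.1). Promoters were compared with blastn 2.17.0, and calculations used pandas 2.3.3. The procedure was tested on simulated data with known shifts.

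The members and lists were chosen with earlier results of these data known. Genes named are the 12 highest and 8 lowest, the 8 with the largest fold between libraries, the extremes of each run with at least 5 measured genes, and a list with known roles; corepressor genes come from a list of 27. Motifs, look-alike promoters and head-to-head pairs were added after the data had been seen. No value was imputed.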

Additional observations from a re-analysis of the deposited data

How the results depend on the processing

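Each comparison of levels kept its sign under every alternative run, apart from that with ZNF genes elsewhere, and none was tested. Against all genes the log2 difference was -0.30 with a pseudocount of 1, -0.365 with means over genes in place of medians, -0.30 without the 7 members of pairs with promoters at least 90% identical, -0.30 without the 57 members at the 80% limit, and -0.29 without members that overlap a coding gene, and it ran from -0.36 to -0.33 with 1 library left out. Against ZNF genes elsewhere it was -0.092 with means over genes, and from -0.065 to -0.055 with 1 library left out. It was -0.0081 without the 7 and also without the 57, and 0.0072 without overlapping members. Look-alike and overlapping genes were left out among the members only, not among the ZNF genes elsewhere. Against other chromosome 19 genes it was -0.54 with means over genes. Quantile normalization and a minimum mean FPKM of 1 moved these 3 differences by less than the spread between libraries. The difference between libraries stayed within 0.013 to 0.048. All 57 named genes stayed within their own spread under quantile normalization, with a largest change of 1.01-fold.

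No paired analysis was possible because the series has 1 group. The comparisons by KRAB domain and the alternatives that need protein sequence were not run, since no protein table was used here; look-alike promoters stood in for protein identity, chosen after seeing the data. The unknown depth and gene length limit comparisons between genes.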
